A study of Mus musculus with 6 samples.

Results

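Mt1, Mt2, Slc30a1, Slc30a10, Slc39a4, Slc39a5, Slc39a8 and Slc39a14 are the metallothioneins and the zinc or manganese transporters described here, 8 of the 25718 genes in the deposited table. They were picked by gene name, with the values of this same comparison already known. Their genotype differences are therefore given as a description with no p values. All 8 passed the filter on low counts that left 15957 genes for testing. The cells were primary hepatocytes, which make up most of the liver's mass, from alcohol-fed mice of 2 genotypes, WT and S100a16KO+/-, with 3 libraries each. The mice were males 8 to 10 weeks old on a C57BL/6 background. S100a16KO+/- mice carried 1 deleted S100a16 allele, made with a floxed allele and EIIa-Cre, a transgene that acts in the early embryo, so the deletion was present in the whole body and not in hepatocytes alone. The labels call this genotype a knockdown. In the feeding protocol both genotypes received control liquid diet for 5 days, a diet with 5% ethanol for 10 days and then a gavage of 5 g/kg ethanol, with collection 9 h later. No library from mice without ethanol is part of the comparison, so an effect of ethanol itself cannot be read from these values. Pooling of mice is not mentioned, and whether RNA was taken before or after the isolated cells were kept in culture is not given in the sources used here.

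Metallothioneins are small cysteine-rich proteins that bind zinc, copper and cadmium in the cytosol. Transporters of the Slc30 family move zinc, or for Slc30a10 manganese, out of the cytosol, and transporters of the Slc39 family move these metals into it. When free zinc increases, the transcription factor MTF1 binds metal response elements in the promoters of Mt1, Mt2 and Slc30a1 and raises their transcription. In liver, glucocorticoids induce the metallothioneins and interleukin 6 induces both the metallothioneins and Slc39a14. Hepatocytes take up zinc, manganese and iron through Slc39a14 and return manganese to bile through Slc30a10.

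The bases upstream of Mt1, Mt2 and both exporters are shown with the core of the metal response element, because Mt1 and Mt2 sit side by side in the genome and share this element, yet differed in opposite directions between genotypes. The core was searched as TGCACNC and TGCGCNC on both strands, and capitals mark the matches. The 250 bases before the RefSeq start are given 5′ to 3′ from the RefSeq promoter table for GRCm38.p6, at chr8:94178839-94179088 for Mt1, chr8:94172368-94172617 for Mt2, chr1:191906531-191906780 for Slc30a1 and chr1:185454598-185454847 for Slc30a10, all on the plus strand.
Mt1: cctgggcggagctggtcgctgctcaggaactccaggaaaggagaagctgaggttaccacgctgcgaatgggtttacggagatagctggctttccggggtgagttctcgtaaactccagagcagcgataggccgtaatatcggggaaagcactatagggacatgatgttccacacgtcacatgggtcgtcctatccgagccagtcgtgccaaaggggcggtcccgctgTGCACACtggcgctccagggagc
Mt2: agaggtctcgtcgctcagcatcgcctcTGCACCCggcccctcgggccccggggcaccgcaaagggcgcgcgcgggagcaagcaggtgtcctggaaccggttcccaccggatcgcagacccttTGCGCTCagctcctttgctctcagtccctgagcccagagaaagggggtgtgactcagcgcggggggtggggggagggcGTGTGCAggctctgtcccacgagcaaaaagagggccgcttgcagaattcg
Slc30a1: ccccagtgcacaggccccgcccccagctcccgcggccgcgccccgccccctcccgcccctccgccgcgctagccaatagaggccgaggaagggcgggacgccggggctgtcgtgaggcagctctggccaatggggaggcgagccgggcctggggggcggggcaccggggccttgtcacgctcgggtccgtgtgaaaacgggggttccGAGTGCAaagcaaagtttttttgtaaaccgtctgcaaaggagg
Slc30a10: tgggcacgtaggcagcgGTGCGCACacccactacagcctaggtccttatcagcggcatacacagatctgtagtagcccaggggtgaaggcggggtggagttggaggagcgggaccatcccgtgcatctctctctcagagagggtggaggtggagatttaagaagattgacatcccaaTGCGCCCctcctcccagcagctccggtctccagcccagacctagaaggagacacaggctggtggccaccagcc
In the window of 300 bases that adds 50 bases after the start, Mt2 held 4 cores, Mt1 3, Slc30a10 3 and Slc30a1 2. The cores of Slc30a10 at positions -233 and -232 overlap each other on opposite strands. Among all 32851 promoter windows, 25.7% held at least 1 core, 7.11% at least 2, 1.97% at least 3 and 0.517% at least 4. Slc39a5 and Slc39a8 have 2 annotated starts each, and for each gene 1 of the 2 windows held 1 core. In all, 6 members had 8 windows in that table, and 6 of the 8 windows held a core. Slc39a4 and Slc39a14 were not matched there. GENCODE M21 lists later starts of Mt1, 129 and 159 bases downstream of its first, and 5 cores lay within the 250 bases before each of these.

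**Figure D1:**
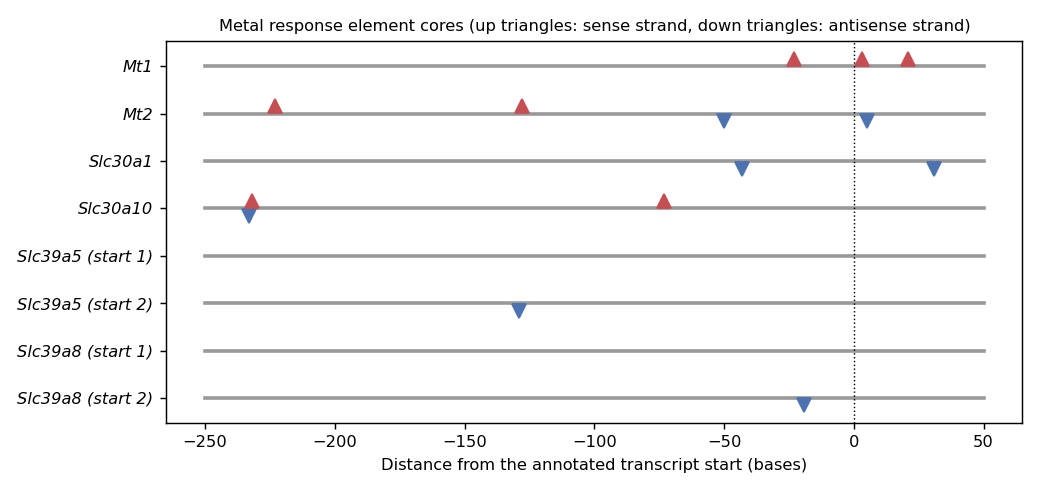
Positions of metal response element cores, in bases from the annotated transcript start, for 8 promoter windows of 6 genes (1 line per window, up triangles for the sense strand, down triangles for the antisense strand). Mt2 held 4 cores, Mt1 and Slc30a10 3 each, and 2 of the 8 windows held none.

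The identity of the libraries was checked first. S100a16 (ENSMUSG00000074457, chr3:90537254-90543151, plus strand) was counted 1001, 1056 and 1107 times in WT and 433, 390 and 366 times in S100a16KO+/-. Its CPM in S100a16KO+/- was 38.0% of that in WT, and the genotypes did not overlap. All 6 hepatocyte markers were detected (2 called higher and 1 lower), with a summed level of 104457 to 115537 CPM in WT and 106181 to 116591 in S100a16KO+/-. Markers of other cells were low beside these, but some differed with genotype. Beside the called counts of all these markers, 11.6% of all tested genes were called higher and 11.2% lower (adjusted p under 0.05, edgeR). Summed sinusoidal endothelial markers (6 of 6 detected, 5 called higher and 1 lower) were at 174 to 185 CPM in WT and 247 to 255 in S100a16KO+/-. Summed stellate cell markers (6 of 6 in the table, 5 above 12 counts in every library, 4 called higher) were at 39.3 to 43.4 and 70.0 to 76.4 CPM. Summed erythroid markers (5 of 6 in the table, all 5 called lower) were at 215 to 252 and 23.4 to 26.3 CPM. Kupffer cell markers (7 of 7 detected, 2 called higher) ran from 88.7 to 107.4 and from 99.2 to 111.5 CPM, and leukocyte markers (5 of 5 in the table, 4 above 12 counts in every library) from 7.31 to 10.5 and from 10.1 to 11.5 CPM. Cholangiocyte markers (5 of 5 in the table, 2 above 12 counts in every library, 1 called lower) ran from 4.59 to 6.43 and from 4.89 to 5.47 CPM. No marker in these lists was at 0 in every library. The part of these other cells in the differences that follow was not tested, and in bulk RNA fewer cells of a type and less RNA per cell cannot be told apart. The estimated counts summed to between 67658095 and 71807834 per library, and 1 sequenced fragment was worth about 4 counts. CPM below is the count scaled to library size by TMM, and every log2 fold change is S100a16KO+/- over WT from edgeR, with its SE.

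Metallothionein mRNAs were the most abundant of the 8 genes per length, and the pair differed in opposite directions. Mt2 was at 70.2 ± 6.85 CPM in S100a16KO+/- against 109 ± 9.05 in WT (SD, n = 3 each), 64.2% of the WT level. Mt1 was slightly higher, at 188 ± 14.6 CPM against 164 ± 10.6. Mt1 (ENSMUSG00000031765, chr8:94179082-94180327, plus strand) and Mt2 (ENSMUSG00000031762, chr8:94172664-94173568, plus strand) are separated by 5513 bases. Both proteins carry zinc in thiolate clusters, and their coding sequences are close enough for the assignment of reads to be a question. The coding bases of Mt1-201 and Mt2-201 in GENCODE M21 are shown for that reason, with capitals at the positions where they differ.
Mt1: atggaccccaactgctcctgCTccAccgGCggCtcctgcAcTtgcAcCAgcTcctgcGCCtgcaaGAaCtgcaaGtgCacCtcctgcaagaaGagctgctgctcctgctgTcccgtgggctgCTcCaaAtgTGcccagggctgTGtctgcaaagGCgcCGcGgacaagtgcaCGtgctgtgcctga
Mt2: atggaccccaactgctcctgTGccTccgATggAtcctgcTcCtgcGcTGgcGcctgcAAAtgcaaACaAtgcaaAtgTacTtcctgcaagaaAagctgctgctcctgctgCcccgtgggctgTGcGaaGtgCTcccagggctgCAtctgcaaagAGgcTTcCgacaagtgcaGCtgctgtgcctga
Each holds 186 bases with 61 codons before the stop, of which 20 are cysteine codons. They differ at 38 positions, an identity of 79.6%, and their longest identical run is 20 bases. No word of 31 bases was shared between transcripts of Mt1 and Mt2.

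Across WT, Mt2 was at 117.5, 99.6 and 110.7 CPM, and across S100a16KO+/- at 70.8, 76.7 and 63.1 CPM. Every S100a16KO+/- library lay below every WT library. The log2 fold change was -0.64 (SE 0.08), and it lay between -0.71 and -0.57 when each library was left out in turn. Mt1 was at 175.1, 154.3 and 161.3 CPM in WT and at 186.5, 203.8 and 174.8 CPM in S100a16KO+/-. WT replicate 1 overlapped S100a16KO+/- replicate 3 by a narrow margin on this scale. In FPKM, where WT libraries were at 119.2, 114.2 and 117.5 and S100a16KO+/- libraries at 136.7, 138.6 and 130.8, the genotypes did not overlap. The log2 fold change of Mt1 was 0.20 (SE 0.07), with a range of 0.14 to 0.25 on leaving out each library. Its direction held in all 6 of these fits, but its adjusted p in edgeR did not stay under 0.05 in each of them.

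With Mt1 higher and Mt2 lower, the ratio of Mt1 to Mt2 necessarily differed between genotypes by more than either gene did. It restates the differences of the single genes, but a ratio within a library does not depend on how that library is scaled. In deposited counts the ratio was 1.49, 1.55 and 1.46 in WT and 2.63, 2.66 and 2.77 in S100a16KO+/-. The mean went from 1.499 ± 0.0469 to 2.69 ± 0.0740, a 1.79-fold difference. Summed Mt1 and Mt2 CPM, by contrast, was 273 ± 19.4 in WT and 259 ± 21.3 in S100a16KO+/-, and the libraries overlapped. A sum in FPKM weights Mt2 more, and in it every S100a16KO+/- library lay below every WT library. Mean Mt2 was 166 FPKM in WT and 107 in S100a16KO+/-, and mean Mt1 was 117 and 135. The overlap of the sums thus depended on the scale. Within each genotype the 3 libraries fell in the same order for Mt1 and for Mt2 in CPM. In FPKM, WT replicates 1 and 3 changed places for Mt2, so that this shared order depended on the scaling.

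**Figure D2:**
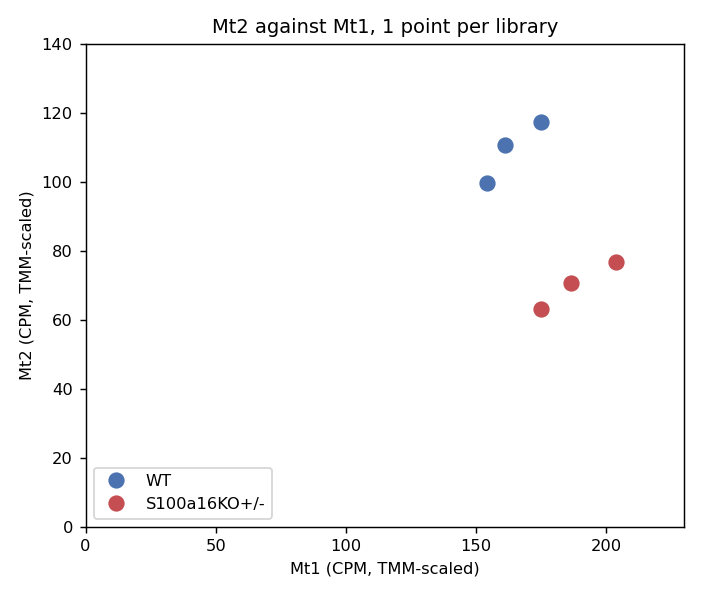
Mt2 against Mt1 in CPM (TMM-scaled) with 1 point per library, WT in blue and S100a16KO+/- in red. The S100a16KO+/- points lie lower for Mt2 (63.1 to 76.7 against 99.6 to 117.5 CPM), and the Mt1 ranges touch (174.8 to 203.8 against 154.3 to 175.1 CPM).

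Per length, the order of the pair also differed between genotypes. Mt2 stood above Mt1 in WT, at 166 against 117 FPKM, and Mt1 above Mt2 in S100a16KO+/-, at 135 against 107 FPKM. The FPKM values imply a length of 1246 bases for Mt1, the union of all its exons in GENCODE M21, and 588 bases for Mt2. When the lengths of Mt1-201 (549 bases) and Mt2-201 (511 bases) were used, Mt1 stood above Mt2 in both genotypes, with a ratio per base of 1.39 in WT and 2.50 in S100a16KO+/-. The order in WT thus depended on the transcript length. The 1.79-fold difference between genotypes is the same for any choice of lengths, provided that both genotypes used the same transcripts. The same lengths then divide the counts of both genotypes. Whether the genotypes used different transcripts of Mt1 or Mt2 was not tested. Mt2 overlaps the annotated antisense RNA Gm45774. The libraries were strand-specific, but no source used here states how strand was set in counting, so reads from such a partner cannot be told apart from those of the gene.

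Both exporters were lower in S100a16KO+/- and differed most of the 8 genes. Slc30a1 (ENSMUSG00000037434, chr1:191906767-191913247, plus strand), the zinc exporter of the plasma membrane, measured 51.9, 61.0 and 60.8 CPM across WT and 26.1, 24.7 and 24.4 CPM across S100a16KO+/-. The genotypes did not overlap. Its mean went from 57.9 ± 5.18 to 25.1 ± 0.881 CPM, 43.3% of WT, with a log2 fold change of -1.21 (SE 0.07). WT replicate 1 was the lowest of its group. Slc30a10 (ENSMUSG00000026614, chr1:185454848-185468762, plus strand) exports manganese across the canalicular membrane, and its loss in people causes manganese overload. It was at 25.2, 28.5 and 26.0 CPM in WT and at 12.7, 10.9 and 11.6 CPM in S100a16KO+/-, again without overlap. The mean was 26.6 ± 1.70 in WT and 11.7 ± 0.940 in S100a16KO+/-, 44.2% of WT, with a log2 fold change of -1.18 (SE 0.09). Leaving out each library kept Slc30a1 between -1.28 and -1.17 and Slc30a10 between -1.24 and -1.13. Slc30a1 overlaps the antisense transcript 1700034H15Rik and Slc30a10 the opposite-strand lincRNA Gm2061.

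The importers, of the Slc39 family, did not move as a group. Slc39a4 was lower, Slc39a14 higher, and Slc39a5 and Slc39a8 overlapped between genotypes. Slc39a4 (ENSMUSG00000063354, chr15:76612383-76617384, minus strand) is the zinc importer of the intestine, mutated in acrodermatitis enteropathica. In WT it was at 59.2, 56.3 and 51.3 CPM, and in S100a16KO+/- at 41.9, 42.5 and 39.8 CPM. All S100a16KO+/- libraries lay below all WT libraries, with means of 55.6 ± 3.99 and 41.4 ± 1.38 CPM. The log2 fold change was -0.43 (SE 0.06), or 74.5% of the WT level.

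Slc39a14 (ENSMUSG00000022094, chr14:70303469-70351425, minus strand) carries zinc, manganese and non-transferrin-bound iron into hepatocytes. It was at 173.4, 182.9 and 176.5 CPM in WT and at 218.6, 212.6 and 222.4 CPM in S100a16KO+/-. Each S100a16KO+/- library lay above each WT library, and the SDs were narrow, at 4.83 and 4.92 CPM around means of 178 and 218. The log2 fold change was 0.29 (SE 0.05), or 122.7% of the WT level, and ran from 0.28 to 0.32 on leaving out each library.

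Slc39a8 (ENSMUSG00000053897, chr3:135825279-135888572, plus strand) takes up manganese and zinc and recovers manganese from bile. It was at 23.8, 22.0 and 21.8 CPM in WT and at 22.3, 21.9 and 19.5 CPM in S100a16KO+/-, with a log2 fold change of -0.08 (SE 0.08). The genotypes overlapped. Slc39a5 (ENSMUSG00000039878, chr10:128395931-128401229, minus strand) is a zinc importer of the basolateral membrane, best known in pancreas and intestine. It was the least abundant, with 71, 58 and 78 counts in WT and 65, 39 and 58 in S100a16KO+/-. With 1 fragment worth about 4 counts, these are few fragments, and its log2 fold change of -0.35 had an SE of 0.32. A difference of that size was not detectable at this depth. Slc39a5 overlaps Ankrd52 on the opposite strand. Slc39a8 overlaps 2 unclassified genes on its own strand and the processed transcript 4933401H06Rik on the other.

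**Figure D3:**
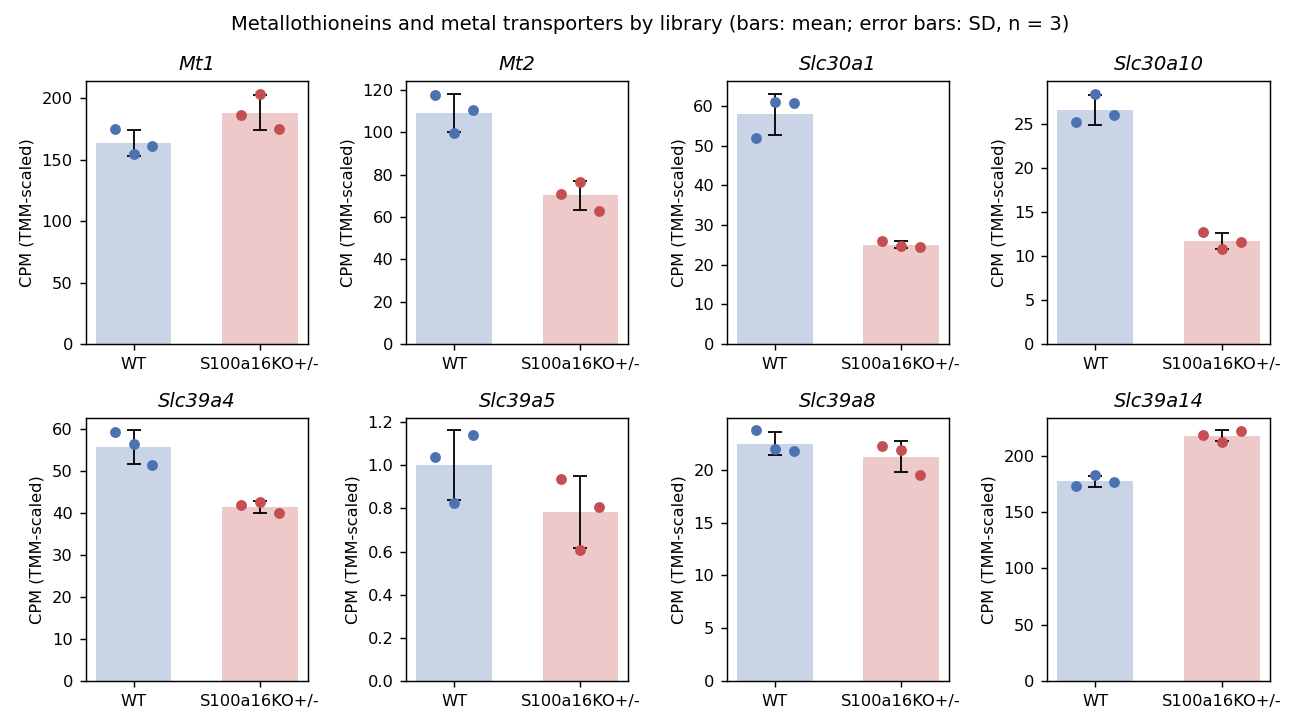
CPM (TMM-scaled) of the 8 genes in each library, with bars for the mean, error bars for the SD (n = 3) and points for the libraries, on axes that start at 0. Slc30a1 and Slc30a10 were at 43.3% and 44.2% of their WT means, Mt2 at 64.2% and Slc39a4 at 74.5%, and Slc39a14 was at 122.7%.

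Slc39a14, the importer that was higher in S100a16KO+/-, was also higher relative to both exporters. The ratio of Slc39a14 to Slc30a10 in FPKM was 4.25, 3.97 and 4.18 in WT and 10.6, 12.1 and 11.8 in S100a16KO+/-. Its mean was 4.13 ± 0.148 and 11.5 ± 0.792, a 2.78-fold difference with no overlap. The ratio of Slc39a14 to Slc30a1 went from 1.53 ± 0.114 to 4.32 ± 0.187, a 2.82-fold difference, also without overlap. These ratios restate the differences given above for the single genes. Slc39a4 was at 74.5% of its WT level, and Slc39a5 and Slc39a8 overlapped between genotypes, so the ratios do not describe importers as a group. They are ratios of mRNA per length, not of transport.

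In order of FPKM, WT hepatocytes had Mt2 at 166 and Mt1 at 117, followed by Slc39a4 at 15.96 and Slc39a14 at 15.0, then Slc30a1 at 9.88, Slc30a10 at 3.65, Slc39a8 at 2.61 and Slc39a5 at 0.395. Slc39a4 and Slc39a14 overlapped between libraries, and the other neighbours in this order did not. In S100a16KO+/- the order was Mt1 at 135, Mt2 at 107, Slc39a14 at 18.5, Slc39a4 at 11.95, Slc30a1 at 4.29, Slc39a8 at 2.48, Slc30a10 at 1.62 and Slc39a5 at 0.315, and no neighbours overlapped. In FPKM, Slc39a14 thus passed Slc39a4, and Slc39a8 passed Slc30a10. The FPKM values imply lengths of 10554 bases for Slc39a14 and 7679 for Slc39a8, whose longest transcripts have 5117 and 4212. For Slc39a4 and Slc30a10 they imply 3107 and 6514 bases, with longest transcripts of 2750 and 5836. The order between genes, and with it both changes of place, therefore depends on the length used, and single transcripts were not tried here. Among all genes of the table, ranked by mean FPKM, Mt2 went from place 226 to 321, Mt1 from 301 to 271 and Slc30a1 from 2185 to 4098.

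Of the 8 genes, 6 had an adjusted p under 0.05 (edgeR's quasi-likelihood test, Benjamini-Hochberg over all tested genes), and 22.8% of the 15957 tested genes did. Mt1 and Slc39a14 were the 2 higher in S100a16KO+/-, where 11.6% of tested genes were called higher, and Mt2, Slc30a1, Slc30a10 and Slc39a4 the 4 lower, where 11.2% were called lower. Since the genes were chosen with these values known, nothing is read from that count. Mt1 was no longer counted without WT replicate 2, without WT replicate 3, or without S100a16KO+/- replicate 1 or 2, which left 5 genes. In CPM, 5 of the 8 did not overlap between genotypes, against 37.9% of tested genes. Of these, 1 lay above WT, as 19.2% of tested genes did, and 4 below, as 18.6% did. Slc30a1 and Slc30a10 also met the study's thresholds of an unadjusted p under 0.05 with a fold of at least 2. The study applied them with DESeq2, and here they were applied to the edgeR fit. There 4.52% of tested genes met them in either direction and 1.62% with lower levels. The median log2 fold change of the 8 was -0.39, beside 0.01 for all tested genes. In the gene ontology terms of the table, all 8 carried a zinc term, 5 a cadmium term, 3 a manganese term (Slc30a10, Slc39a8 and Slc39a14) and 2 an iron term (Slc39a8 and Slc39a14).

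Most other zinc transporters did not pass the test, and 4 of the 5 that did were higher in S100a16KO+/-. Of 20 listed genes, 15 were tested, of which 4 rose, 1 fell and 10 did not pass the test, with a median log2 fold change of 0.25. Slc30a2, Slc30a8, Slc39a12, Mt3 and Mt4 were too low to test. Slc39a7, which releases zinc from the endoplasmic reticulum, rose from 16.7 to 25.7 FPKM. Its log2 fold change was 0.62 (SE 0.06, edgeR adjusted p = 7.58e-06), and it had 3461, 3341 and 3221 counts in WT and 4831, 5161 and 5227 in S100a16KO+/-. Slc30a5, which loads zinc into the early secretory pathway, rose by 0.64 (SE 0.08, edgeR adjusted p = 3.03e-05), from 1728, 1737 and 1852 counts to 3091, 2421 and 2713. For both genes the S100a16KO+/- libraries lay above the WT libraries throughout. Slc30a7, a Golgi zinc transporter, rose by 0.28 (SE 0.08, edgeR adjusted p = 0.0229). Slc30a9, a mitochondrial zinc transporter, was the 1 gene that fell, by 0.26 (SE 0.06, edgeR adjusted p = 0.00799). Slc39a2, a plasma membrane importer named here after its values were seen, rose by 0.96 (SE 0.30, edgeR adjusted p = 0.0327) at a mean under 1 FPKM. Slc30a7 lost its call without WT replicate 1, WT replicate 2, S100a16KO+/- replicate 1 or S100a16KO+/- replicate 3, with adjusted p from 0.0596 to 0.0903 in edgeR. Slc30a9 lost it without WT replicate 2, at 0.0535. The number of genes called on this list fell from 5 to 2 without WT replicate 2, and to 3 without WT replicate 1 or without S100a16KO+/- replicate 1. The 5 called genes are 33.3% of the 15 tested, beside 22.8% of all tested genes.

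**Figure D4:**
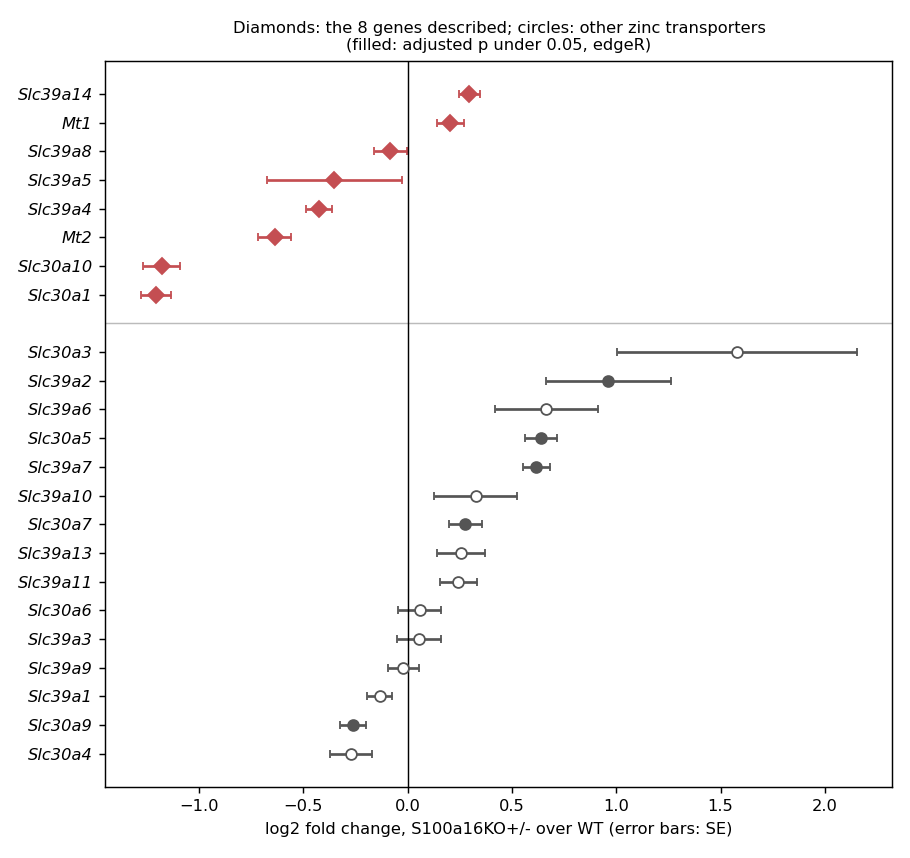
The log2 fold change between genotypes, with SE, of the 8 genes (diamonds) and of the 15 other zinc transporters tested (circles, filled at an adjusted p under 0.05 in edgeR). Slc30a1 at -1.21 and Slc30a10 at -1.18 are the lowest of the diamonds, and 4 of the 5 filled circles lie above 0.

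Mtf1 itself, the zinc sensor that drives Mt1, Mt2 and Slc30a1, did not pass the test, with a log2 fold change of -0.10 (SE 0.11, edgeR adjusted p = 0.605). It had 601, 595 and 543 counts in WT and 531, 521 and 562 in S100a16KO+/-, and the genotypes overlapped. Among Mtf1 and 5 described targets outside the 8 genes, 1 rose and 2 fell, and 3 did not pass the test. The median log2 fold change of the 6 was 0.12, and the 3 called genes (50.0%) stand beside 22.8% of all tested genes. The list was not sorted by whether MTF1 raises or lowers each gene, so no direction of MTF1 action is read from it. Slc40a1, the iron exporter ferroportin, fell from 15.3 to 9.04 FPKM, by 0.77 on the log2 scale (SE 0.07, edgeR adjusted p = 1.63e-06). Gclc, the catalytic subunit of the first enzyme of glutathione synthesis, fell by 0.21 (SE 0.05, edgeR adjusted p = 0.0108). Ndrg1, a hypoxia- and stress-responsive gene named after its values were seen, rose by 0.70 (SE 0.16, edgeR adjusted p = 0.00610).

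Of the 12 genes listed for manganese handling and manganese enzymes, 10 were tested, none rose and 3 fell, with a median of -0.08. DESeq2 also called 0 higher, and at an unadjusted p under 0.05 edgeR had 1 higher, Atp13a1, named after its values were seen. The 3 were Slc40a1, which also carries manganese and stands on the MTF1 list too, Tfrc and Sod2. Sod2, the manganese superoxide dismutase of mitochondria, fell by 0.21 (SE 0.05, edgeR adjusted p = 0.00885). Tfrc, the transferrin receptor, fell by 0.42 (SE 0.13, edgeR adjusted p = 0.0413), and without WT replicate 1, 2 or 3 or without S100a16KO+/- replicate 3 its adjusted p in edgeR was 0.0501 to 0.133. Arg1, the manganese-dependent arginase of the urea cycle and the most abundant gene of the list, had a log2 fold change of -0.03 (SE 0.04, edgeR adjusted p = 0.722). Of 14 copper genes, all tested, 1 rose and 2 fell, with a median of -0.09. Atp7b, which exports copper into bile and to ceruloplasmin, fell by 0.34 (SE 0.07, edgeR adjusted p = 0.00223). Cp, ceruloplasmin itself, rose by 0.24 (SE 0.05, edgeR adjusted p = 0.00234). Xiap, an inhibitor of apoptosis that also binds copper, fell by 0.21 (SE 0.07, edgeR adjusted p = 0.0308). Without WT replicate 2 or 3, or without S100a16KO+/- replicate 2 or 3, its adjusted p in edgeR was 0.0804 to 0.117. The called shares of the manganese and copper lists, 30.0% and 21.4%, stand beside 22.8% of all tested genes.

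Interleukin 6 is a known inducer of the metallothioneins and Slc39a14, and glucocorticoids of the metallothioneins, so the target lists of both were read beside the 8 genes. Acute phase and interleukin 6 target genes were mostly higher. All 20 were tested, 16 rose and 2 fell, with a median log2 fold change of 0.47. Hamp, which encodes the iron hormone hepcidin, rose by 2.96 (SE 0.17, edgeR adjusted p = 1.54e-04), from 6986, 5603 and 5871 counts to 44289, 53483 and 44258. Lcn2, an iron-siderophore binding protein, rose by 1.67 (SE 0.09, edgeR adjusted p = 1.17e-08), and Socs3, the feedback inhibitor of interleukin 6 signalling, by 1.43 (SE 0.11, edgeR adjusted p = 3.03e-07). The acid glycoproteins Orm1, Orm2 and Orm3 rose by 0.59, 0.88 and 0.84, and serum amyloid Saa1 by 0.81, with edgeR adjusted p between 8.22e-06 and 1.59e-04. Hpx, the haem-binding hemopexin and the most abundant of the list by FPKM over both genotypes (Hp was higher in WT alone), rose by 0.48 (SE 0.05, edgeR adjusted p = 2.07e-06). Steap4, a metalloreductase, fell by 0.68 (SE 0.07, edgeR adjusted p = 8.00e-06). Slc39a14 and Mt1, whose libraries overlapped in CPM, differed in the direction of most of this list, and Mt2 did not. Whether interleukin 6 or glucocorticoids had a part in any of these differences was not tested.

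Glucocorticoid target genes had no common direction. All 14 were tested, 7 rose and 5 fell, and the median was 0.08. Zbtb16 rose by 1.34 (SE 0.12, edgeR adjusted p = 1.63e-06), Sds, which degrades serine, by 1.14 (SE 0.06, edgeR adjusted p = 4.71e-09), the clock gene Per1 by 1.13 (SE 0.06, edgeR adjusted p = 1.09e-08) and Pdk4 by 0.89 (SE 0.14, edgeR adjusted p = 3.28e-04). Ddit4, an inhibitor of mTORC1, fell by 1.09 (SE 0.09, edgeR adjusted p = 5.57e-07), and the phosphatase Dusp1 and the receptor gene Nr3c1 each fell by 0.46 (SE 0.06 each, edgeR adjusted p = 3.25e-05 and 6.39e-05). Tat, tyrosine aminotransferase and the most abundant of the list, rose by 0.17 (SE 0.04, edgeR adjusted p = 0.00921), and its adjusted p was 0.0540 and 0.0652 in edgeR without WT replicate 2 or 3. Lcn2 belongs to both inducer lists. The acute phase and glucocorticoid lists had 90.0% and 85.7% of their tested genes called, beside 22.8% of all tested genes.

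**Figure D5:**
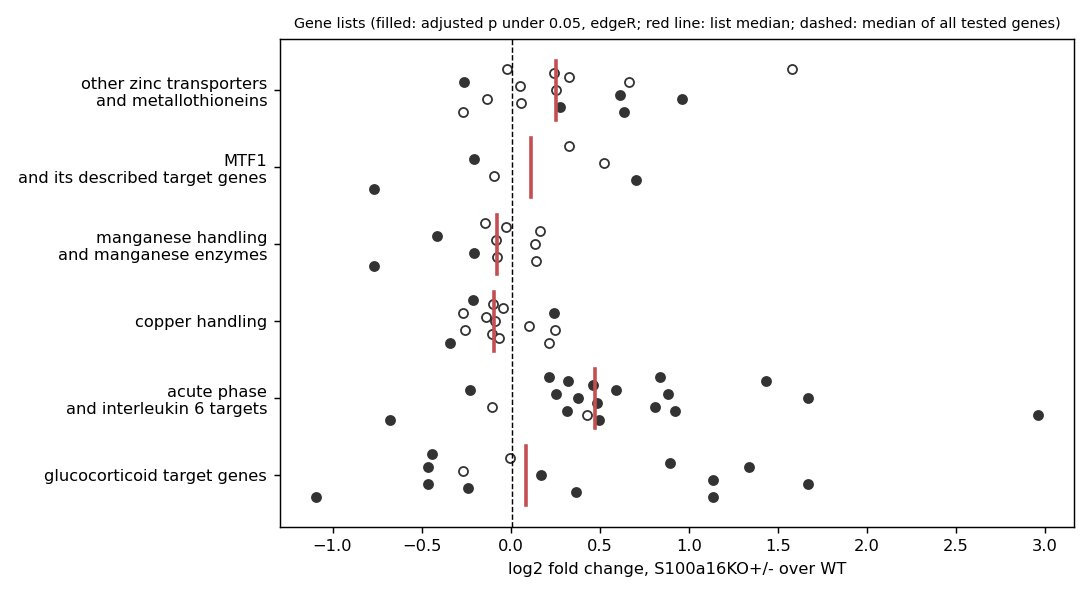
The log2 fold change between genotypes of the tested genes of 6 lists (1 point per gene, filled at an adjusted p under 0.05 in edgeR), with the list median in red and the median of all tested genes as a dashed line at 0.01. List medians ran from -0.09 for copper handling to 0.47 for the acute phase.

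The genes whose levels across the 6 libraries were most like those of Mt1 were Pemt (r = 0.998), which makes phosphatidylcholine, Asgr2 (r = 0.994), a subunit of the asialoglycoprotein receptor, and Pabpc1 (r = 0.993), a poly(A)-binding protein. These are Pearson correlations on log2(CPM + 1) among 9042 genes with a mean of at least 1 FPKM, over 6 points that share genotype and library scaling. Mt2, the neighbouring gene, was at place 6302 in that order (r = -0.536). This r pools both genotypes and so includes the opposite genotype differences of the pair. Within each genotype the libraries fell in the same order for both genes in CPM, though not in FPKM for WT. Slc39a14 was at place 1918 (r = 0.639), and the exporters Slc30a1 and Slc30a10 had r = -0.812 and r = -0.824.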

How the data were processed

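Hepatocyte RNA of both genotypes was sequenced as strand-specific poly(A) libraries, 3 per genotype. The authors deposited 1 table with an estimated count and an FPKM value per gene and library. The count is not scaled for library size, and the FPKM is scaled for length and depth. The submitters' processing notes name cutadapt 1.9, HISAT2 2.0.4, UMI-tools, StringTie 1.3.4d, DESeq2, edgeR and the mm10 build, with no parameters. Positions are those of the table and matched GENCODE M21 (GRCm38) for all 8 genes. Totals were 67658095 to 71807834 counts per library. Counts clustered at multiples of 4, so up to 3 fragments (12 counts) may lie behind a count of 0, for counting error only.

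Rounded counts were tested with edgeR 4.0.16 in R 4.3.3 (TMM, filterByExpr, robust quasi-likelihood fit, two-sided, no covariate), with Benjamini-Hochberg adjustment over 15957 genes and a threshold of 0.05. The study names DESeq2, and DESeq2 1.42.0 was an alternative, beside median-ratio size factors, other filters, limma 3.58.1 on log2(FPKM + 1) and log2(FPKM + 0.1), counts divided by 4, the replicate block and each library left out in turn. The labels and methods do not say that the libraries come from separate mice, and p values then measure the spread between these libraries.

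The 8 genes and all gene lists were chosen with earlier results of these data known. Named genes are the 8, S100a16, Mtf1, the most abundant gene of each list and up to 8 genes per list with the largest change among those with an adjusted p under 0.05 and a mean FPKM of at least 1. In data simulated for this comparison with 15532 genes, 100 genes were changed by 1 on the log2 scale and 100 by 2. Of these, edgeR recovered 82% and 92%, with 22 false calls, a larger share of its calls than the threshold of 0.05. The simulation changed a far smaller share of genes than the 22.8% called here. It also drew noise at the scale of the estimated counts, not of fragments.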

Additional observations from a re-analysis of the deposited data

How the results depend on the processing

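No fit reversed the direction of any of the 8 genes or of the 30 named list genes. The number of tested genes with an adjusted p under 0.05 was 3643 in the reported fit, 3551 with DESeq2 and 2734 to 3302 when each library was left out. It was 2228 with limma on log2(FPKM + 1) and 2208 on log2(FPKM + 0.1), where 9054 genes were tested. On the list of other zinc transporters 2 genes were called under either FPKM scale, and 2 to 5 when each library was left out. On the manganese list 1 gene was called under either FPKM scale, and 2 to 3 when each library was left out. Slc30a1 and Slc30a10 had log2 fold changes of -1.03 and -0.83 on log2(FPKM + 1), where the pseudocount lowers the fold of weakly expressed genes. The share of promoter windows with a metal response element core was 21.4% in the 250 bases before the start. Of the 30 named list genes, 6 (Slc30a7, Slc30a9, Sod2, Tat, Tfrc and Xiap) lost their call in at least 1 fit. The deviations of same-numbered libraries correlated at -0.05, -0.02 and 0.05, and those of differently numbered libraries at -0.07 to 0.08. The labels do not say whether the libraries were paired by number, and such weak correlations do not settle it. With the replicate block, 3082 genes were called, and 5 of the 8 genes, without Mt1, and the log2 fold change of Mt1 was 0.20. Slc39a5 could not be fitted under a filter of 1 CPM or in the FPKM fits. Counting depth limits Slc39a5 most.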
